A study of Mus musculus with 8 samples.

Results

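Small nucleolar RNAs (snoRNAs) guide the chemical modification and cleavage of ribosomal RNA, and in mammals most of them are cut out of the introns of a host gene. Some hosts encode proteins of the translation machinery, whereas others, such as Gas5 and the Snhg (snoRNA host gene) family, are transcribed and spliced without yielding a long protein, so that their exons have been regarded largely as packaging for the intronic snoRNAs. Gas5 takes its name from growth-arrested fibroblasts, in which its RNA accumulates, and several of these spliced RNAs begin with the run of pyrimidines that marks mRNAs of the translation machinery and are known targets of nonsense-mediated decay, the pathway that removes RNAs with a premature stop codon.

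The members described here were the 7 rows of the deposited table named Gas5, Snhg1, Snhg3, Snhg5, Snhg6, Snhg8 and Snhg12, chosen by name among 49492 rows. The choice was made with earlier results of these data known. All 7 were among the 16232 genes that passed the filter on low values. The libraries came from mouse embryonic fibroblasts (MEFs), with Pontin WT or Pontin RA as the genotype and normal medium or glucose starvation as the medium, and each of the 4 groups had 2 replicates. Pontin (gene Ruvbl1) works with its partner Reptin (Ruvbl2) as an ATPase in chromatin remodellers and in the machinery that builds snoRNA-protein particles. Both genotypes shared the Pontin f/f background with Cre deletion of the endogenous gene, and each carried a Flag-tagged Pontin added by lentivirus and kept under hygromycin, wild-type in WT and arginine-to-alanine mutant in RA. Starved cells were kept in glucose-free medium with dialyzed serum, and the length of starvation of the sequenced cells is not stated in the sources used here. Routine culture used serum not described as dialyzed, so loss of glucose and a change of serum cannot be told apart. Each genotype was 1 stable cell line, so the line and the form of Pontin cannot be told apart. The labels do not say whether the replicates of a group were separate cultures, and the p-values below therefore measure the spread between these samples, which may be technical. In bulk RNA, fewer cells of a type and less RNA per cell cannot be told apart.

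The depth ranged from 43205841 to 56363034 recovered reads per library. All 7 fibroblast markers were detected and summed to between 7530 and 7867 CPM (reads scaled to the library size) in normal medium, but to between 2906 and 2973 in starved WT and between 3840 and 3846 in starved RA. The defining markers of leukocytes (Ptprc), endothelium (Pecam1), epithelium (Epcam), skeletal muscle (Myod1) and glia (Sox10, Gfap) were under 1 CPM in every library. Other listed markers were detected. The leukocyte list, through Csf1r and Cd68, summed to between 13.0 and 13.4 CPM in normal and between 23.8 and 24.3 in starved WT cells, and to between 15.7 and 17.2 in normal and between 20.7 and 21.1 in starved RA cells. The endothelial list, through Kdr and Tek, went from between 2.52 and 3.39 to between 8.92 and 9.43 in WT and from between 2.02 and 3.43 to between 5.99 and 6.34 in RA. The epithelial list, through Krt18 and Cdh1, was between 1.43 and 2.06 in normal and between 1.84 and 2.12 in starved WT cells. In RA it went from between 1.84 and 1.94 to between 2.68 and 3.21. The neural list, through Tubb3, went from between 74.3 and 76.0 to between 10.5 and 10.6 in WT and from between 70.0 and 80.8 to between 19.7 and 20.2 in RA. Ruvbl1 was between 27.6 and 28.5 CPM in the WT libraries and between 32.05 and 45.05 in the RA libraries, and since the added copies may contribute to this row, it does not test the genotype labels. Apart from the epithelial sum in WT, these marker sums moved with every starvation difference below, and their part in those differences was not tested.

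The members are shown first by the sequence around their annotated starts, because pyrimidines at the start of the RNA define the class of translation-linked transcripts to which Gas5 is known to belong. RefSeq promoter sequences (GRCm38.p6) matched 6 of the 7 members, with 2 annotated starts for Gas5. Each line below holds 45 bases before the start and 25 bases from it, 5′ to 3′. Capitals mark the letters TATA where they lie within 40 to 15 bases before the start, and the longest run of at least 5 pyrimidines beginning with C within 10 bases of it.
Gas5, first start, plus strand, chr1:161034556-161034625: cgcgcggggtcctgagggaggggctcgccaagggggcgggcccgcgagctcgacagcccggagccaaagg
Gas5, second start, plus strand, chr1:161035121-161035190: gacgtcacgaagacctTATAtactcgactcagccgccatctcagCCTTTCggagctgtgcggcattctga
Snhg1, plus strand, chr19:8723442-8723511: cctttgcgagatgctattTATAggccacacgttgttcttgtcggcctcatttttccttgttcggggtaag
Snhg12, plus strand, chr4:132308633-132308702: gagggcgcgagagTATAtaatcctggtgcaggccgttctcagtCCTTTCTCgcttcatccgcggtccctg
Snhg5, minus strand, chr9:88522873-88522942: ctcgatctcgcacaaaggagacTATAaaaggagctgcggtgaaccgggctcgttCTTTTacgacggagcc
Snhg8, minus strand, chr3:123508312-123508381: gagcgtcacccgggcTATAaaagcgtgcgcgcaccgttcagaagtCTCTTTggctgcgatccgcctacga
Snhg3, minus strand, chr4:132353662-132353731: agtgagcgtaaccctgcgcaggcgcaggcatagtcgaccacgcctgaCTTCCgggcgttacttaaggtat

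The TATA letters lay in 5 of the 7 windows, against 5.91% of the 32851 promoters in the table, and a pyrimidine run in 5 of 7, against 30.7%. Both were present in 4 of the 7 windows, the second start of Gas5, Snhg5, Snhg8 and Snhg12, against 1.88% of all promoters. Snhg3 was the member with a run and no TATA letters. The TATA window was chosen after these sequences had been seen, and a match of letters, searched on the strand of the gene only, is a description, not a binding site. When the run had to begin with a C exactly at the annotated first base, 2 of 7 windows held one, against 2.51% of all promoters.

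A few intronic snoRNAs are shown because their rows carry the contrast with the hosts described further on. They were read from the GENCODE M21 transcripts (GRCm38), 5′ to 3′. For the box C/D snoRNAs, which guide methylation, capitals mark the first exact TGATGA (letters of box C) and the last CTGA (letters of box D). For the box H/ACA snoRNA, which guides pseudouridylation, they mark the last ACA. These are matches of letters, and the box in use may lie elsewhere. In Snord47 the letters tgatg stand directly before the marked TGATGA. Snord78 held no exact TGATGA near its start.
Snord47, in Gas5, plus strand, chr1:161038082-161038158: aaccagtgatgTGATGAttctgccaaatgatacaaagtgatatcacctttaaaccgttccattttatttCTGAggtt
Snord78, in Gas5, plus strand, chr1:161036984-161037049: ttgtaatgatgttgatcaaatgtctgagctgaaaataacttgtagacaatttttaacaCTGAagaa
Snord50a, in Snhg5, minus strand, chr9:88521529-88521600: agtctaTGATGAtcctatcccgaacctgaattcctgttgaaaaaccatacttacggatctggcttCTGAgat
Snora24, in Snhg8, minus strand, chr3:123507937-123508066: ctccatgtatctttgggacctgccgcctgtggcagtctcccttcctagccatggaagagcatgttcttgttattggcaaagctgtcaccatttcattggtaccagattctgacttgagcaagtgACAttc

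On GRCm38, a later build than the mm9 genome of the deposited values, Gas5 spans chr1:161034422-161038539, Snhg1 chr19:8723475-8726443, Snhg3 chr4:132348014-132353686, Snhg5 chr9:88521050-88522929, Snhg6 chr1:9941959-9944118, Snhg8 chr3:123507552-123508404 and Snhg12 chr4:132308623-132311024. The annotation holds 29 snoRNA genes within the members under 27 symbols with a row in the table. Gas5 holds 9 of these symbols, Snhg1 8, Snhg12 4, Snhg3 and Snhg5 2 each, and Snhg6 and Snhg8 1 each. All 29 lie in introns of the spliced host transcript with the most exons, which has 12 exons but only 502 spliced bases in Gas5 and 10 exons with 605 bases in Snhg1. By symbol, Snhg5 and Snhg6 are hosts of box C/D snoRNAs, Snhg3 and Snhg8 of box H/ACA snoRNAs, and Snhg12 of both kinds.

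The first question was how the hosts differ between WT cells in starvation medium and in normal medium. By limma on log2(CPM + 1) with Benjamini-Hochberg (BH) adjustment over all genes tested, 6 of the 7 members rose and Snhg3 fell. Of all genes tested, 78.6% were called, 39.3% higher and 39.2% lower. The median difference of the 7 was 1.52 on the log2 scale, against 0.00 for all genes. At least a 2-fold rise on that scale was reached by Gas5, Snhg1, Snhg5, Snhg8 and Snhg12, where 7.84% of genes did so, and no member fell as far, where 11.7% of genes did.

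**Figure D1:**
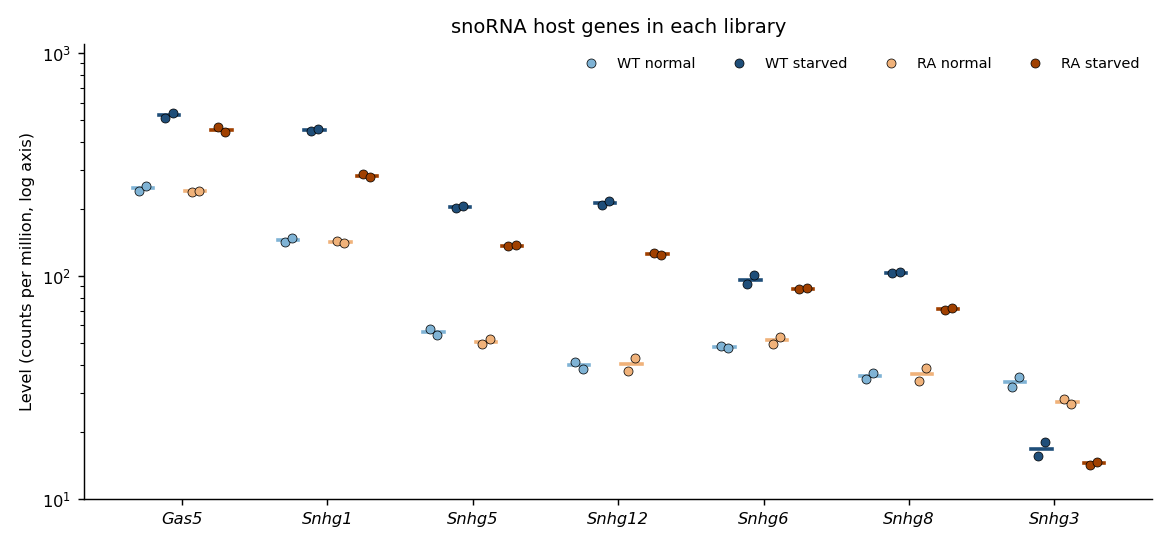
Levels of the 7 snoRNA host genes in CPM (log axis) in each of the 8 libraries; points are libraries, bars are the mean of the 2 libraries of a group. The starved libraries lie above the normal ones for 6 genes and below them for Snhg3, and the starved RA points lie below the starved WT points for every gene.

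Snhg12, host of Snora16a, Snora44, Snora61 and Snord99, changed most. It stood at 41.2 and 38.4 CPM in the WT libraries without starvation and at 208 and 218 in the starved ones. The starved pair lay far above the normal pair, with a ratio of means of 5.34. The log2 difference was 2.39 (SE 0.06, limma BH-adjusted p = 2.54e-16), and 95 of the 16232 genes tested rose further.

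Snhg5, host of Snord50a and Snord50b, followed. It was at 58.1 and 54.5 CPM in normal medium and at 203 and 207 under starvation in WT, a log2 difference of 1.85 (SE 0.04, limma BH-adjusted p = 2.97e-16). Snhg1, host of Snord22 and of 7 other snoRNA rows, went from 141 and 148 CPM to 446 and 457, a log2 difference of 1.63 (SE 0.04, limma BH-adjusted p = 2.83e-16). Both hosts showed replicates that differed by far less than the media did.

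Snhg8, host of Snora24, was at 34.5 and 36.7 CPM in normal medium and at 103 and 104 in starved WT cells, a log2 difference of 1.52 (SE 0.06, limma BH-adjusted p = 1.27e-13). Gas5, the most abundant member, rose from 241 and 254 CPM to 514 and 538, a log2 difference of 1.08 (SE 0.04, limma BH-adjusted p = 1.25e-13). Snhg6, host of Snord87, rose from 48.4 and 47.5 CPM to 92.2 and 100.7, a log2 difference of 0.99 (SE 0.05, limma BH-adjusted p = 8.41e-12). In each of these genes both starved libraries lay above both normal ones. Over the 7 members this held for 6, where 44.6% of all genes tested showed it.

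Snhg3, host of Snora73a and Snora73b, moved the other way. It was at 31.8 and 35.4 CPM in normal medium and at 15.6 and 17.9 in starved WT cells, so that both starved libraries lay below both normal ones. The log2 difference was -0.96 (SE 0.08, limma BH-adjusted p = 4.39e-09). Its row is uncertain: on GRCm38 the Snhg3 exons share 705 bases with the antisense gene Gm17300 and 135 with Rcc1 on the same strand, and the handling of strand in the counting is not stated. Gm17300 fell by 1.01 and Rcc1, a chromatin-bound nucleotide exchange factor for Ran, fell by 0.79 on the log2 scale in WT (limma, both adjusted p under the threshold of 0.05). Snhg6 shares 127 exon bases with the antisense gene Mcmdc2, and Gas5 overlaps the body of Zbtb37 with 0 shared exon bases.

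In RA cells the same 6 hosts rose and Snhg3 fell, where 68.7% of genes were called, 35.0% higher and 33.7% lower. Snhg12 went from 37.5 and 42.9 CPM in normal medium to 127 and 124 under starvation, Snhg5 from 49.3 and 51.9 to 136 and 138, and Snhg1 from 144 and 141 to 288 and 277. Snhg8 went from 33.9 and 38.7 to 70.6 and 71.7, Gas5 from 239.5 and 241 to 465 and 442, and Snhg6 from 49.7 and 53.2 to 87.1 and 88.3. In all 6 both starved RA libraries lay above both normal ones, where 42.5% of all genes tested did.

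The log2 differences in RA were 1.62 for Snhg12, 1.42 for Snhg5, 0.98 for Snhg1, 0.95 for Snhg8, 0.91 for Gas5 and 0.76 for Snhg6, with SEs of 0.04 to 0.06. The median of the 7 was 0.95 in RA, against 0.01 for all genes. The largest of the limma BH-adjusted p-values among these 6 was 6.45e-10, for Snhg6. Snhg3 fell from 28.1 and 26.5 CPM to 14.2 and 14.7, a log2 difference of -0.88 (SE 0.08, limma BH-adjusted p = 2.78e-08). At least a 2-fold rise on the log2(CPM + 1) scale was reached in RA by Snhg5 and Snhg12, where 4.44% of genes did so, and no member fell as far, where 4.58% did.

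In normal medium the genotypes differed little in these genes. Snhg3 was lower in RA by 0.29 (SE 0.08, limma BH-adjusted p = 0.027) and Snhg5 by 0.15 (SE 0.04, limma BH-adjusted p = 0.0427) on the log2 scale, 2 of 7 members, where 9.63% of genes were called, 6.68% higher and 2.95% lower. The direction of the background calls turned with the scaling, from 1084 higher and 479 lower genes to 683 and 1007 with total-read scaling. Both calls were lost when single libraries were left out: Snhg3 was at -0.21 without WT normal replicate 2 and at -0.25 without RA normal replicate 2, Snhg5 at -0.10 without WT normal replicate 1 and at -0.11 without RA normal replicate 1, and none of these passed. The Snhg5 call was also lost without either starved RA library, which enter this comparison only through the shared spread. Both RA libraries lay below both WT libraries in normal medium for 3 of 7 members, where 24.6% of all genes tested showed it. No member differed by 2-fold in normal medium, where 0.505% of genes were called higher by that much. The log2 differences of the other 5 lay between -0.04 for Gas5 and 0.10 for Snhg6, with SEs of 0.04 to 0.06, and did not pass the test.

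Under starvation all 7 hosts were lower in RA than in WT, where 62.9% of genes were called, 30.8% higher and 32.1% lower. With total-read scaling this background was 5254 genes higher and 4869 lower, in place of 5005 and 5206. Both starved RA libraries lay below both starved WT libraries for 7 of 7 members, where 41.8% of all genes tested showed it. The log2 difference was -0.75 (SE 0.06, limma BH-adjusted p = 4.67e-09) for Snhg12, -0.67 (SE 0.04, adjusted p = 1.64e-10) for Snhg1, -0.58 (SE 0.04, adjusted p = 6.07e-09) for Snhg5 and -0.54 (SE 0.06, adjusted p = 3.8e-07) for Snhg8. It was smaller for Gas5 at -0.21 (limma BH-adjusted p = 0.000216), Snhg3 at -0.20 (adjusted p = 0.0339) and Snhg6 at -0.13 (adjusted p = 0.0287). The calls of Snhg3 and Snhg6 were each lost in 7 of 20 alternative fits, among them those without WT starved replicate 2 (-0.10 and -0.071), RA starved replicate 1 (-0.18 and -0.12) or RA starved replicate 2 (-0.22 and -0.14). None of the 7 differed by 2-fold, where 1.25% of genes were called lower by that much.

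The interaction asks whether the starvation difference itself was smaller in RA. It was for 6 of the 7 hosts, where 50.6% of genes had a called interaction, 24.5% above 0 and 26.1% below. The direction of this background turned with the scaling, from 3972 genes above and 4235 below to 4652 and 3349 with total-read scaling. The starvation difference in RA less that in WT was -0.76 (SE 0.08, limma BH-adjusted p = 6.53e-07) for Snhg12, -0.65 (SE 0.06, adjusted p = 5.56e-08) for Snhg1, -0.56 (SE 0.08, adjusted p = 2.18e-05) for Snhg8 and -0.43 (SE 0.06, adjusted p = 2.54e-05) for Snhg5. No host reached a 2-fold difference here, where 1.06% of genes did so below 0. For Snhg6 it was -0.23 (SE 0.07, limma BH-adjusted p = 0.0115) and for Gas5 -0.17 (SE 0.06, limma BH-adjusted p = 0.0199). The Gas5 call was lost in 6 of 19 alternative fits. Among them were total-read scaling (-0.10) and the fits without WT normal replicate 1 (-0.13), WT starved replicate 2 (-0.14) or RA starved replicate 2 (-0.14). The Snhg6 call was lost in 3, among them total-read scaling (-0.16) and the fit without WT starved replicate 2 (-0.17). For Snhg3 the value was 0.09 (SE 0.11) and did not pass (limma BH-adjusted p = 0.523). The median of the 7 was -0.43, against -0.01 for all genes.

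**Figure D2:**
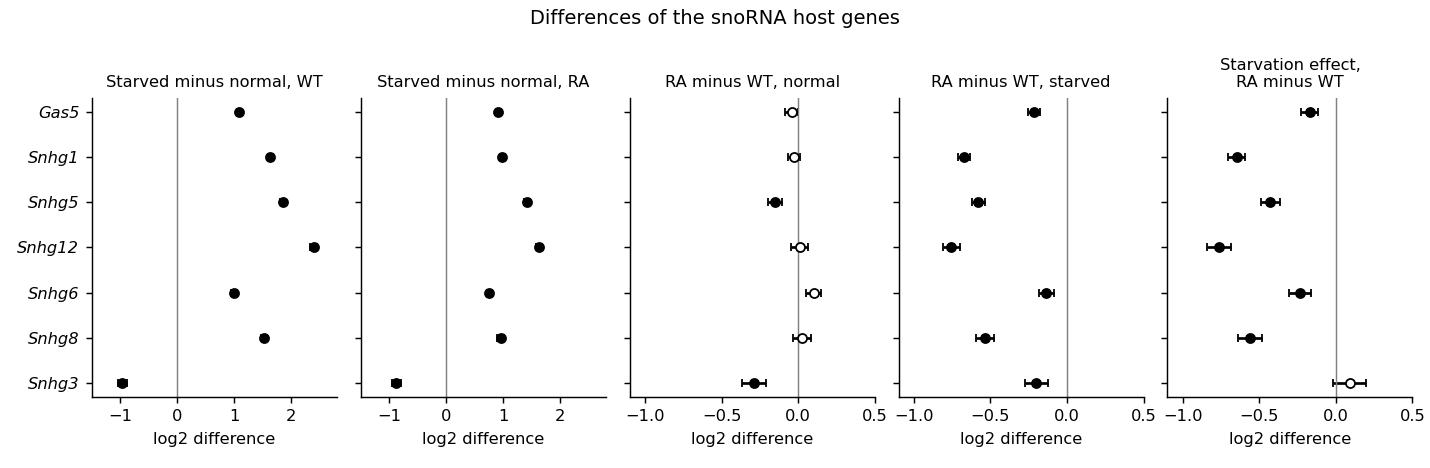
Log2 differences of the 7 hosts in 5 comparisons on the log2(CPM + 1) scale, with the SE as error bars; filled points passed the threshold of the limma test and open points did not. The starvation differences are positive for 6 genes and negative for Snhg3, and in starved cells every gene is lower in RA.

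The order of levels per length was compared on the scale of CPM per kilobase of the spliced transcript with the most exons. In WT in normal medium Gas5 stood at 493 ± 18 (SD, n = 2) and Snhg1 at 239 ± 7.9. Snhg6 at 101.3 ± 1.4 and Snhg3 at 101.2 ± 7.5 did not differ beyond their spread, and Snhg8 (79.5 ± 3.4), Snhg5 (72.1 ± 3.3) and Snhg12 (65.7 ± 3.3) lay close below, where the mean ± SD ranges of Snhg5 and Snhg12 overlapped. In starved WT cells the order was Gas5 (1048 ± 33), Snhg1 (746 ± 13), Snhg12 (351 ± 12), Snhg5 (262 ± 3.7), Snhg8 (231 ± 1.5), Snhg6 (204 ± 13) and Snhg3 (50.4 ± 5). On this length Snhg12 went from the last place to the third. In starved RA cells the order was Gas5 (903 ± 32), Snhg1 (467 ± 13), Snhg12 (207 ± 3.2), Snhg6 (185 ± 1.8), Snhg5 (175 ± 1.8), Snhg8 (159 ± 1.8) and Snhg3 (43.4 ± 1.1), and in RA cells in normal medium Snhg3, Snhg8, Snhg12 and Snhg5 lay together between 64.8 and 82.2, below Snhg6 at 109. These levels depend on the transcript taken, since annotated transcripts with retained introns make the merged exons of Gas5 3760 bases long in place of 502. Per kilobase of merged exons the order in starved WT turned, with Snhg1 at 152 ± 2.6, Gas5 at 139.9 ± 4.4, Snhg8 at 121 ± 0.76, Snhg5 at 118 ± 1.7 and Snhg12 at 88.6 ± 3.0.

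Most rows of the snoRNAs within the hosts fell under starvation, in Snhg3 along with the host and in the others while the host rose. Of the 26 such rows that passed the filter, 25 fell under starvation in WT and 0 rose, where 39.2% of all genes were called lower; edgeR and DESeq2 also called 25 and 24 of them. Their median difference was -1.15 on the log2(CPM + 1) scale, a scale that understates change at these low levels. On it 18 of them fell by at least 2-fold, where 11.7% of all genes did. The row that did not pass was Snora16a in Snhg12, at -0.18 (limma BH-adjusted p = 0.296), and Snord87 in Snhg6 was below the filter. Without any filter, both starved WT libraries lay below both normal ones in 26 of the 27 rows, where 44.1% of tested genes showed this.

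Snord22, the box C/D snoRNA of Snhg1 with the highest level among these rows, was at 10.1 and 9.80 CPM in WT without starvation and at 2.91 and 2.89 with it, while Snhg1 itself rose. Its log2 difference was -1.49 (SE 0.11, limma BH-adjusted p = 1.31e-09). Snord78 in Gas5 went from 8.50 and 8.79 CPM to 2.77 and 2.72, a log2 difference of -1.36 (SE 0.12, limma BH-adjusted p = 1.01e-08). In both, the starved libraries lay well below the normal ones. Snord47 in Gas5 went from 2.52 and 2.44 CPM to 0.566 and 0.438, and Snora24 in Snhg8 from 1.74 and 2.16 to 0.440 and 0.183. Both passed the limma test, with log2 differences of -1.21 and -1.17. Snora24 was also under 1 CPM in starved RA, at 0.862 and 0.867, so it passed the filter only through normal medium. Its values in starved WT rest on 21 and 10 reads.

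In RA 19 of the 26 rows fell and 0 rose, where 33.7% of genes were called lower, with a median of -0.38. Both starved RA libraries lay below both normal ones in 24 of the 27 rows, where 40.7% of tested genes did. Fewer rows were called without RA normal replicate 1 (12), RA starved replicate 1 (11) or RA starved replicate 2 (13), and DESeq2 called 12. None fell by at least 2-fold, where 4.58% of genes did, and 0 passed at an adjusted p under 1e-05. Snord22 went from 8.76 and 8.23 CPM to 6.01 and 4.96 in RA, a log2 difference of -0.55 (limma BH-adjusted p = 0.000253). Snord78 was at 5.45 and 6.49 CPM in normal medium and at 6.33 and 5.29 under starvation in RA, so that the media overlapped, with a log2 difference of -0.03 (limma BH-adjusted p = 0.807).

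Between starved genotypes the called rows lay in the opposite sense to the hosts. In starved cells 16 of the 26 snoRNA rows were higher in RA and 0 lower, where 30.8% of genes were called higher. Only 1 of them passed at an adjusted p under 1e-05, and 0 differed by 2-fold, where 5.45% of genes were higher by that much. Both WT libraries lay below both RA libraries in 23 of the 27 rows, where 39.7% of tested genes did. The interaction was called above 0 for 18 of the 26 and called below 0 for none, where 24.5% of genes had a called interaction above 0, and its median was 0.67. It reached a 2-fold difference in 3 rows, where 5.04% of genes did so above 0, and passed at an adjusted p under 1e-05 in 1. By edgeR 17 and by DESeq2 16 of them were called in the interaction. Snord78 had the largest interaction of these rows, 1.33 (SE 0.17, limma BH-adjusted p = 4.84e-06). Without starvation 3 of the 26 rows were lower in RA, where 2.95% of genes were called lower, and 0 were called without WT normal replicate 1 or without WT normal replicate 2, 1 without either RA normal replicate.

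The rows summed within each host show the same split. The 9 rows in Gas5 summed to 33.7 and 35.4 CPM in WT in normal medium and to 8.44 and 8.24 under starvation. In RA they summed to 25.3 and 25.1 CPM in normal medium and to 18.1 and 18.5 under starvation. The ratio of the normal to the starved mean was 4.14 in WT and 1.38 in RA. For the 8 rows in Snhg1 it was 3.74 in WT and 1.53 in RA, for the 4 in Snhg12 2.35 and 1.43, and for the 2 in Snhg5 4.03 and 2.15.

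Over all 27 rows the sum in WT was 83.7 and 85.6 CPM in normal medium and 23.8 and 23.5 under starvation, and in RA 66.7 and 64.5 against 44.1 and 42.3. As a share of the 7 host rows this was 14.0% and 13.9% in normal WT cells, 1.51% and 1.43% in starved WT cells, 11.5% and 10.8% in normal RA cells and 3.72% and 3.66% in starved RA cells. These sums rest on 1138 to 4247 recovered reads per library. Snhg3 was the host whose row and snoRNA rows both fell, with the share at 26.8% and 22.6% in normal WT cells and 19.8% and 17.7% in starved ones.

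**Figure D3:**
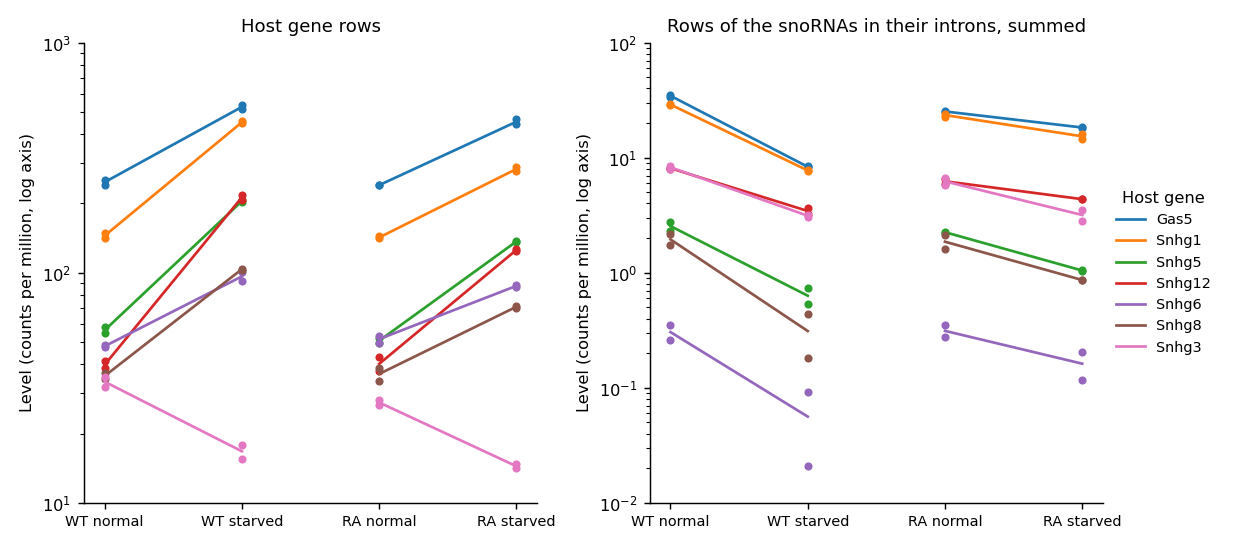
Levels in CPM (log axes) of the host rows (left) and of the summed snoRNA rows within each host (right) in the 4 groups; points are libraries and lines join the means of normal and starved cells of 1 genotype. Host levels rise for 6 genes while the snoRNA sums fall for all 7 hosts, with steeper falls in WT than in RA; the Snhg6 sum in starved WT rests on 1 and 5 reads.

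What these snoRNA rows count cannot be read from the files. The libraries were polyA selected, mature snoRNAs carry no polyA tail, and a read at a snoRNA position may come from the snoRNA or from unspliced or intron-retaining host RNA, which cannot be told apart here. Whether the host rows also count such reads is not stated. Of the 1483 rows of annotated snoRNAs, 106 passed the filter. Of the 80 outside the 7 hosts, 57 fell and 9 rose under starvation in WT, with a median of -0.56. In RA 29 of them fell and 8 rose, with a median of -0.25. Over all genes, 39.2% were called lower and 39.3% higher in WT, and 33.7% and 35.0% in RA.

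The other noncoding snoRNA hosts on the list did not share 1 direction. Members and lists were chosen with earlier results of these data known. These counts therefore cannot show that the members differ from other noncoding hosts. Of 16 listed, 11 were tested, of which 5 rose and 6 fell in WT (median -0.44) and 5 rose and 4 fell in RA (median 0.08). Over all genes, 39.3% were called higher and 39.2% lower in WT, and 35.0% and 33.7% in RA. Zfas1 rose most, by 1.33 on the log2 scale in WT and 1.11 in RA (limma BH-adjusted p = 1.64e-15 and 5.75e-14). Rian, a host within an imprinted cluster, fell most in WT, from 124 and 119 CPM to 37.9 and 36.2, and was at 128 and 129 CPM in normal and 135 and 137 in starved RA cells. Its interaction of 1.77 was the highest of the list, and that of Epb41l4aos at -0.30 the lowest (limma BH-adjusted p = 2.57e-13 and 0.00607). The interaction was called above 0 for 4 of the 11 and below 0 for 2, where 24.5% and 26.1% of all genes were.

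The protein-coding snoRNA hosts, mostly ribosomal proteins and translation factors, were closer to the 7 genes, within the same limit of choice. Of 35 tested, 25 rose and 8 fell in WT (median 0.62), and 21 rose and 9 fell in RA (median 0.20). Over all genes, 39.3% were called higher and 39.2% lower in WT, and 35.0% and 33.7% in RA. Eef2, an elongation factor, rose most in WT, from 2293 and 2338 CPM to 5548 and 5411, while Eif4a1, an RNA helicase of translation initiation, had the lowest difference, -0.64 (limma BH-adjusted p = 1.31e-10). The interaction was called below 0 for 24 of the 35 and above 0 for 2, where 26.1% and 24.5% of all genes were. Its median was -0.42, next to -0.43 for the 7 members. It ran from -0.73 for Eef1b2 to 0.84 for Eif4a2 (limma BH-adjusted p = 1.47e-08 and 1.84e-09).

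**Figure D4:**
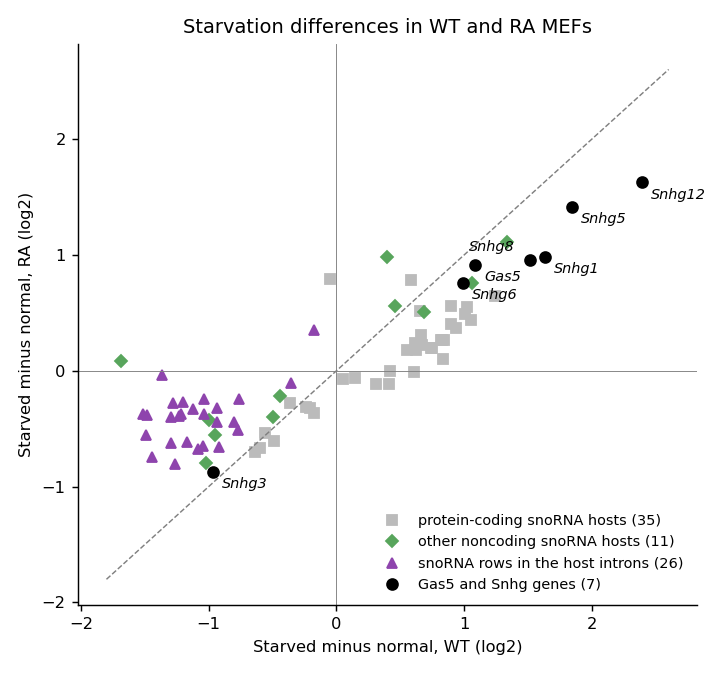
Log2 difference of starved against normal cells in WT (horizontal) and RA (vertical) for the 7 members, the other noncoding hosts, the protein-coding hosts and the snoRNA rows in the introns of the 7 members; each point is a gene and the dashed line marks equal differences. Snhg12 and Snhg5 lie farthest to the upper right, at 2.39 and 1.85 in WT, and most snoRNA rows lie at the left, with WT differences below those in RA.

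Genes of the snoRNA particle itself mostly fell. Of the 8 tested box C/D and H/ACA particle proteins, 1 rose and 6 fell in WT, and 0 rose and 8 fell in RA, with medians of -0.25 and -0.35. They ran in WT from -0.60 for Dkc1, the pseudouridine synthase, to 0.11 for Nhp2 (limma BH-adjusted p = 4.07e-09 and 0.03). Over all genes, 39.2% were called lower and 39.3% higher in WT, and 33.7% and 35.0% in RA. The interaction was -0.62 for Nop10 (limma BH-adjusted p = 2.19e-05) and 0.08 for Nop56 (limma BH-adjusted p = 0.274). A set of 3 of these genes, Dkc1, Nop56 and Nop58, are themselves snoRNA hosts and stand in both lists.

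Of the 12 assembly factors, 5 rose and 3 fell in WT, with Naf1 highest at 0.65 and Rpap3 lowest at -0.65. In RA 3 rose and 5 fell. In both genotypes 66.7% of these factors were called, where 78.6% of all genes were in WT and 68.7% in RA. The interaction was highest for Ruvbl1, at 0.34, and lowest for Znhit3, at -0.67 (limma BH-adjusted p = 0.00568 and 0.000261). The added Pontin copies may contribute to the Ruvbl1 row, so its value need not describe the endogenous gene. Of the 12 nonsense-mediated decay factors, 6 rose and 4 fell in WT and 6 rose and 2 fell in RA. These calls, 83.3% and 66.7% of the list, lay near the 78.6% and 68.7% of all genes. Upf3a was highest in WT at 0.71 and Dhx34 lowest at -0.41, and the interaction ran from -0.42 for the helicase Upf1 to 0.62 for Smg9 (limma BH-adjusted p = 1.4e-05 and 2.95e-05).

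Gas5 RNA is known to bind the glucocorticoid receptor. Of the 11 tested glucocorticoid-responsive genes, 6 rose and 5 fell in WT, with the metallothionein Mt2 highest at 3.01 and the kinase Sgk1 lowest at -2.65. In RA 7 rose and 4 fell. All 11 were thus called in both genotypes, where 78.6% of all genes were in WT and 68.7% in RA. The interaction was 1.59 for Sgk1 and -1.15 for Mt1 (limma BH-adjusted p = 5.18e-12 and 2.32e-10). Other genes named for growth arrest or DNA damage split too: of 10 tested, 4 rose and 6 fell in WT, from Gas1 at -4.57 to Ddit3 at 4.13. In RA 4 of these 10 rose and 4 fell. Their called shares were 100% and 80%, against the same shares of all genes. Their interactions ran from -0.46 for Ddit3 to 2.07 for Gas1 (limma BH-adjusted p = 5.37e-06 and 3.53e-09).

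Of the 14 proliferation genes, 2 rose and 10 fell in WT and 1 rose and 13 fell in RA. Over all genes, 39.2% were called lower in WT and 33.7% in RA. Ccnd1, a G1 cyclin, was lowest in WT at -4.34 and Myc highest at 0.86, and the interaction ran from -0.69 for Mcm7 to 2.22 for Ccnd1 (limma BH-adjusted p = 5.18e-08 and 2.8e-14). Of the 13 regulators of mRNAs with a 5′ pyrimidine tract, 8 rose and 4 fell in WT and 4 rose and 4 fell in RA. The called shares of these regulators were 92.3% and 61.5%, against 78.6% and 68.7% of all genes. Tsc1 was highest in WT at 1.11 and Eif4e lowest at -0.66. The interaction ran from -0.34 for Tial1 to 0.18 for Tsc2 (limma BH-adjusted p = 0.000214 and 0.0152).

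The nearest annotated genes on GRCm38 were also read. The start of Snhg1 lies 118 bases from Slc3a2, the heavy chain of amino acid transporters, which was at 194 and 193 CPM in WT in normal medium and at 822 and 843 under starvation. In RA Slc3a2 was at 204 and 213 CPM in normal medium and at 611 and 605 under starvation. Its log2 differences were 2.10 in WT and 1.54 in RA, with an interaction of -0.56, and all 3 passed the limma test. Trnau1ap, 739 bases from Snhg12, had log2 differences of 0.49 in WT and 0.23 in RA, well under those of Snhg12. Of the 10 neighbours tested, 3 rose and 6 fell in WT, and Cenpl near Gas5, a centromere protein, was lowest at -1.99. Over all genes, 39.3% were called higher and 39.2% lower in WT.

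Likeness of pattern was measured by Pearson's r of log2(CPM + 1) over the 8 libraries, among 10491 tested genes with a mean of at least 10 CPM. It is a description, since the 8 libraries form 4 groups and large shares of all genes move between them. The closest genes were Larp1b, Rbm39 and Olfm1 for Gas5, Ranbp9, Rragc and Flcn for Snhg1, Pacs2, Cars and Sdf2l1 for Snhg5, Lipa, Rbm28 and Tigd2 for Snhg6, Bcat1, Ctsk and Grina for Snhg8, and Ldlrad3, D430042O09Rik and Gm17359 for Snhg12. For these 6 hosts r was 0.9976 or more for the closest 3 and between 193 and 379 genes reached 0.99. For Snhg3, whose closest genes were its antisense partner Gm17300 at 0.998, Tmem165 and Zcchc8, 9 genes reached 0.99. The named genes depend on the measure: ranked by Spearman's rho, which ties at its maximum for several genes of each host, Cars was the only one of them again among the closest 3 of its host.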

How the data were processed

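The authors prepared polyA libraries (TruSeq RNA v2, paired-end, Illumina HiSeq) and mapped them to mm9 with TopHat2 (version 2.0.9 in the submitters' processing notes, which also name bedtools and edgeR). The annotation, read counter and strand handling are not given in the sources used here. The deposited signal is CPM of a library size scaled by the authors, and columns summed to 965845 to 1029723. The columns named minus and plus were read as normal medium and starvation. All nonzero values (100%, within 0.02 reads) were whole reads, and 78.2% to 80.5% of counts from 1 to 9 were even, so edgeR also ran on halved reads. A value of 3 reads was worth 0.0548 to 0.069; these limits cover counting error only.

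The 16232 genes that reached 1 CPM in 2 or more libraries were tested with limma (3.58.1, R 4.3.3) on log2(CPM + 1), with 4 group means over all 8 samples, eBayes trend, 2-sided p, BH adjustment and a threshold of 0.05, for 5 contrasts. Members and lists were chosen with earlier results of these data known. Named genes were the members, the highest and lowest of each list in WT starvation and in the interaction, neighbours, intronic snoRNA rows and the 3 genes most like each member. Alternatives were the pseudocount, filters, scalings, quantile normalization, groups fitted, a replicate block, no trend, thresholds, each sample left out, edgeR (4.0.16) and DESeq2 (1.42.0) on recovered reads. On simulated data of 16232 genes limma recovered 85% of 1.5-fold and 97% of 2-fold changes for starvation in WT, with 3.70% false calls. In the interaction it recovered 70% and 88%, with 5.95% false calls. The simulation changed 200 genes, in starved WT only, and gave every gene the same dispersion. In the data 78.6% of genes were called for starvation in WT, so these rates need not hold here.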

Additional observations from a re-analysis of the deposited data

Results flagged for a closer look

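The response to starvation differed between WT and RA by the test of the difference itself (limma interaction, BH-adjusted p under 0.05) in the results gathered here, each given as the log2 starvation difference in RA less that in WT. Among the hosts these were Snhg12 (-0.76), Snhg1 (-0.65), Snhg8 (-0.56), Snhg5 (-0.43), Snhg6 (-0.23) and Gas5 (-0.17), and beside Snhg1 the neighbour Slc3a2 (-0.56). All 7 are below 0.

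Among the intronic snoRNA rows all differences were above 0. In Gas5 they were Snord78 (1.33), Gm22357 (1.14), Gm23212 (1.10), a snoRNA row named Mir5117 (0.93), Gm25789 (0.84), Snord47 (0.84), Gm22489 (0.71), Snord80 (0.67) and Gm26224 (0.52). In Snhg1 they were Gm22680 (0.996), Snord22 (0.93), Gm24452 (0.89), Gm25894 (0.80), Gm22744 (0.80), Gm23246 (0.67), Gm25855 (0.61) and Gm24453 (0.46), and in Snhg8 Snora24 (0.56).

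Among the other lists the differences were Rian (1.77), Epb41l4aos (-0.30), Eif4a2 (0.84), Eef1b2 (-0.73), Nop10 (-0.62), Ruvbl1 (0.34), Znhit3 (-0.67), Smg9 (0.62), Upf1 (-0.42), Sgk1 (1.59), Mt1 (-1.15), Gas1 (2.07), Ddit3 (-0.46), Ccnd1 (2.22), Mcm7 (-0.69), Tsc2 (0.18) and Tial1 (-0.34). These were the extremes of their lists by rule, and the added Pontin copies may contribute to the Ruvbl1 row.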

How the results depend on the processing

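The 7 hosts stayed called in both starvation comparisons in every alternative fit, and the starved-RA and interaction counts stayed within 1.5 times, thresholds aside. At least a 2-fold change left 2 of 7 for starvation in RA and 0 for the normal, starved-genotype and interaction comparisons. An adjusted p under 1e-05 left 0 in normal medium, 4 between starved genotypes and 2 in the interaction. In normal medium no filter and eBayes without the trend called 0 of 7, the fit on only the groups compared 1, and leaving out a replicate 1 to 2. The replicate numbers are shared by title. Deviations of same-numbered samples correlated at -0.0076 to 0.157, which cannot settle whether these samples share a batch. With the replicate number as a block the host counts were 7, 7, 2, 7 and 6, as without it. Over all genes the block raised the normal-medium calls from 1084 higher and 479 lower to 1371 and 688.

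Uncalled values changed sign as follows. In RA minus WT in normal medium, total-read scaling gave -0.021 for Snhg8 and -0.037 for Snhg12, and Snhg12 was -0.012 with quantile normalization and -0.0018 by DESeq2. Leaving out 1 replicate there gave -0.059 to 0.0087 for Snhg1, -0.066 to 0.12 for Snhg8 and -0.085 to 0.10 for Snhg12. The interaction of Snhg3 was -0.037 with quantile normalization and -0.0066 to 0.19 leaving out 1 replicate. Under starvation in WT, Serpinc1 near Gas5 was -0.12 (limma BH-adjusted p = 0.4) and 0.049 with quantile normalization. Leaving out 1 replicate gave -0.36 to 0.0021 for Snora16a in WT, and in RA -0.14 to 0.076 for Snord78 and -0.010 to 0.046 for Dhx34. The cause was not tested. A filter at 5 left 3 snoRNA rows for the test, all 3 called in WT, and without a filter 10 were called in RA. An adjusted p under 1e-05 left 20 snoRNA rows for starvation in WT and 0 for starvation in RA. It left 0 in normal medium, 1 between starved genotypes and 1 in the interaction. At this depth the Snhg6 and Snhg8 snoRNA rows rest on few reads.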
